A study of Mus musculus with 24 samples.

Results

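This report describes macrophages grown from mouse bone marrow and polarized toward the M1 state, set against unpolarized macrophages (M0) grown from the same kind of mice. The arrays were chosen by their labels alone, 4 of M1 cultures and 4 of M0 cultures from naive mice, which makes 8 of the 24 arrays of the series. All 8 cultures came from naive male C57BL/6 mice of 10 weeks. Adherent marrow progenitors were grown for 7 days in medium containing 20% supernatant of L929 cells, a fibroblast line whose medium carries macrophage colony-stimulating factor, and 10% fetal bovine serum. The M1 cultures were also given interferon-gamma (IFN-gamma, 50 ng/mL) and bacterial lipopolysaccharide (LPS, 10 ng/mL) on day 3, and no other difference between the groups is named. A further 8 marrow cultures helped to estimate the spread between arrays. These were 4 M0 cultures from mice taken 14 days after sepsis and 4 M2 cultures, which per the label received IL-10 at 20 ng/mL on day 3. Per the series text, marrow was cultured in 2 independent experiments, each giving 3 samples of a group, of which the 4 judged best were hybridised. It does not say which experiment each array stems from, or whether each came from its own mouse, so p-values here measure the spread between these chosen samples.

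IFN-gamma acts through its receptor and the kinases JAK1 and JAK2, and genes it induces often carry the gamma-activated sequence (GAS) in their promoters. LPS acts through Toll-like receptor 4 (TLR4) and its adaptors, which activate NF-kB, and through the adaptor TRIF, which induces type I interferon. Macrophages given both are known for nitric oxide, inflammatory cytokines and antigen presentation, for a shift toward glycolysis, and for leaving the cell cycle.

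RNA was hybridised to Agilent 1-colour arrays of 55681 distinct probes. A level here is the log2 of a probe's processed signal minus the 75th percentile of its array, so a level of 0 is as bright as that percentile. The log2 change is the mean level in M1 minus that in M0 naive, and ± after it is the standard error of the limma fit (n = 4 arrays in each group). A gene is represented by its brightest probe among those the scanner software marked as well above background on 3 or 4 arrays of M1 or of M0 naive, levels are never compared between genes, and a gene is said to rise or fall where its adjusted p was at most 0.05. Where one group was above background on no array, the change is given as a bound, "at least N-fold", against the dimmest signal that counts as above background. A gene counts as above background on an array where any of its probes was so marked, which need not be the brightest probe. The share of probes well above background was 56.9% to 65.9% in M1 and 62.0% to 65.2% in M0 naive, no spot was saturated, and arrays correlated at 0.960 to 0.992 within M1, 0.918 to 0.992 within M0 naive and 0.857 to 0.929 between the groups. The M1 arrays and the M0 naive arrays were spread over the same 3 slides. The median change over all genes was -0.12, that of protein-coding genes -0.03 and that of long intergenic noncoding RNA probes -0.20. On M0 naive replicate 3 the gap between the median levels of coding genes and of noncoding probes was 2.25, against 2.75 to 3.00 on the other 3 arrays of the group and 2.67 to 3.12 in M1.

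Markers that define macrophages were present in both groups, though not all at like levels. Of 21 macrophage identity genes tested, 10 fell in M1 and 2 rose, and 1 of those that fell was above background on no M1 array. Adgre1, a surface receptor used to identify mouse macrophages, read 7.16, 6.75, 6.61 and 6.94 on the 4 M0 naive arrays and 6.99, 6.64, 6.76 and 6.88 on the M1 arrays, and these ranges overlap. Its change was -0.05 ± 0.19 (adjusted p = 0.894). Csf1r, the receptor for macrophage colony-stimulating factor, measured -0.40 ± 0.18 (adjusted p = 0.113), and Spi1, the factor PU.1, 0.05 ± 0.22. None of these was called. Markers of other cell types were partly present. Of 18 T and NK cell markers with a probe 9 were tested, among them Cd3e and Cd4, which were above background on all 8 arrays, and 9 were not tested. Of those 9, Cd3d, Cd3g, Cd8a, Ncr1 and Klrb1c were above background on no M1 array, and Cd2, Gzmb, Ifng and Klrk1 on 1. In M0 naive, Cd3d and Cd2 were above background on 2 arrays. Cd3g, Cd8a, Ncr1, Gzmb and Klrk1 were so on 1 M0 naive array, and Klrb1c and Ifng on none. The mean level of the 9 tested genes ran from -1.07 to -0.73 over the M1 arrays and from -0.37 to -0.04 over the M0 naive arrays. Of 10 endothelial markers 6 were tested. Cdh5 and Tek were above background on no M1 array, Esam on 1 and Emcn on 2, and each of them on 1 M0 naive array. The mean level of the 6 tested genes ran from -0.29 to 0.09 in M1 and from -0.25 to 0.01 in M0 naive. Of 10 mast cell and basophil markers 4 were tested and 5 others, Cpa3 among them, were above background on no M1 array. Cpa3 was above background on 1 M0 naive array. The part of these cells in the results was not tested. Because these are bulk cultures, fewer cells of a type and less RNA per cell cannot be told apart.

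The polarized cultures differed from M0 in 8327 of 29527 genes, or 28.2% (limma, Benjamini-Hochberg adjusted p at most 0.05). Of these, 3948 genes (13.4%) were higher in M1 and 4379 (14.8%) lower. The split differed by kind of probe. Among 16030 genes with a RefSeq name, 3050 (19.0%) were higher and 2794 (17.4%) lower, 36.5% in all, and among 8618 long intergenic noncoding RNA probes 420 were higher and 718 lower. The members of the gene lists below have RefSeq names, so that 36.5% is the nearer background for their counts. In 10025 genes (34.0%) the levels of the 4 M1 arrays and the 4 M0 arrays did not overlap. Large changes ran both ways, with 420 genes higher and 371 lower by 3 or more log2 units. A further distinction is detection: 178 of the genes that rose were above background in M1 and on no M0 naive array, and 378 of those that fell were above background in M0 naive and on no M1 array. Within each of the 3 slides taken alone, 8305 of the 8327 genes kept the sign of their change. The genes were called on these same arrays, so that count was nearly fixed in advance and is no independent support. Where the median of a list moved by over 1.5 times or changed sign with another processing or with 1 array left out, the range over those alternatives stands beside it.

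**Figure D1:**
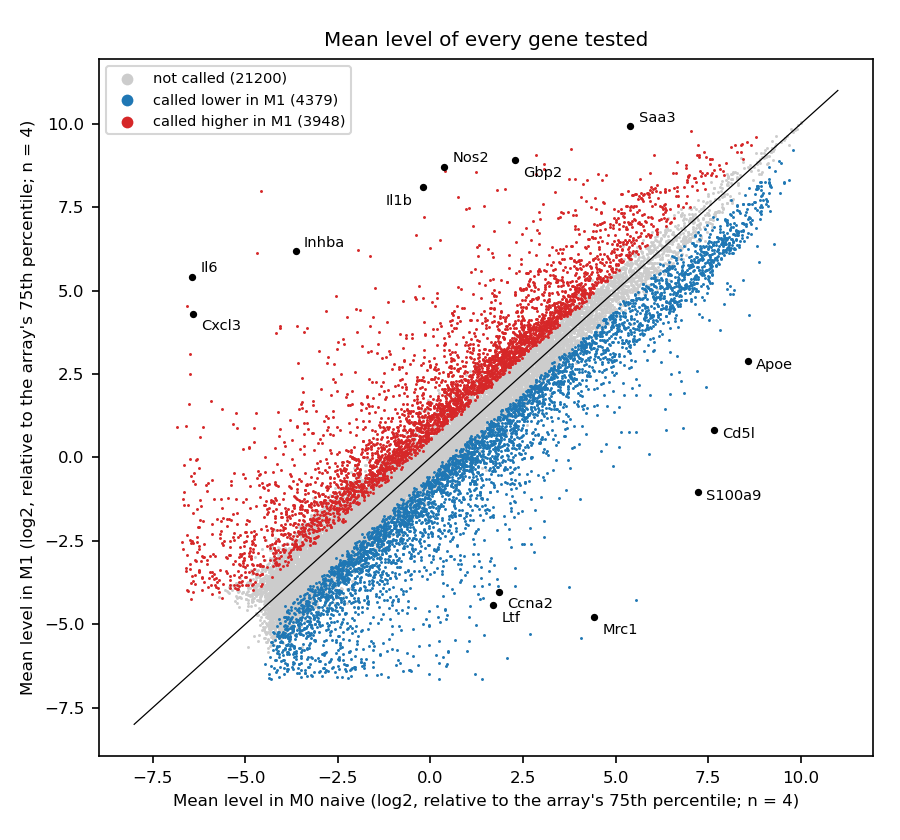
Mean level of each of the 29527 genes in M0 naive (horizontal) and M1 (vertical), both in log2 units relative to the 75th percentile of the array, n = 4 arrays each. Red points are the 3948 genes called higher, blue the 4379 called lower and grey those not called; the line marks equal levels. Il6, Cxcl3 and Inhba lie at the upper left, and Mrc1, S100a9 and Apoe at the lower right.

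Il6, the gene of interleukin-6, had the highest bound among the rises. It read -6.10, -6.61, -6.35 and -6.65 on the M0 naive arrays and 5.49, 5.34, 5.17 and 5.68 on the M1 arrays. It was above background on no M0 naive array and on all 4 M1 arrays, so that M1 was at least 975-fold higher (adjusted p = 5.1e-13). Il1b, the precursor of interleukin-1 beta, was measurable in both groups. It read -0.10, -0.16, -0.37 and -0.13 in M0 naive and 8.16, 8.04, 8.04 and 8.23 in M1, a change of 8.31 ± 0.20 (adjusted p = 5.1e-13). Nos2, the inducible nitric oxide synthase that defines M1 cells in mice, read 0.11, 0.46, 0.41 and 0.53 in M0 naive and 8.91, 8.59, 8.55 and 8.82 in M1. Its change was 8.34 ± 0.16 (adjusted p = 7.5e-14), and within the 3 slides it was 8.13, 8.44 and 8.58. The gap between the groups in each of these genes was many times the spread within either group. In the opposite direction, Mrc1, the mannose receptor CD206, read 4.72, 4.42, 4.02 and 4.49 in M0 naive and -4.38, -4.77, -4.63 and -5.38 in M1. It was above background on no M1 array, at least 418-fold lower than in M0 naive (adjusted p = 1.0e-12).

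**Figure D2:**
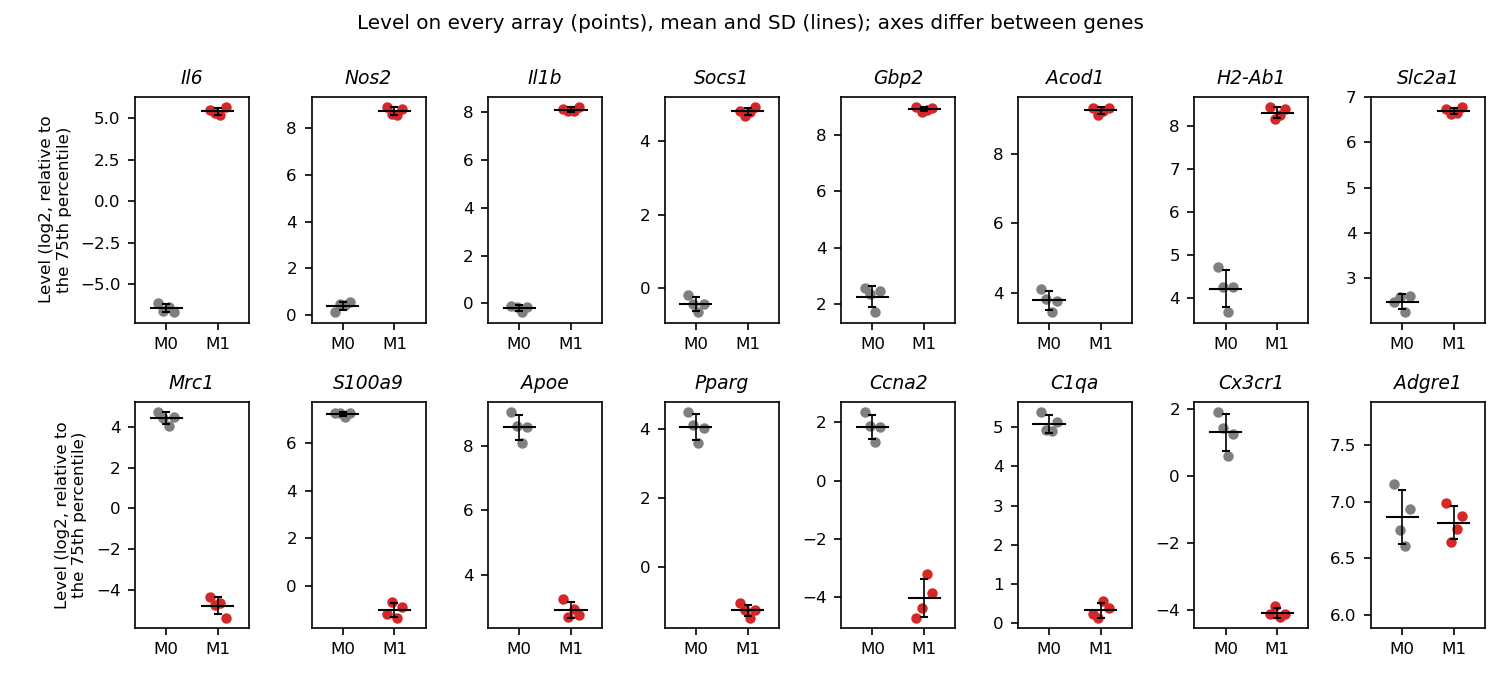
Level of 16 genes on each of the 4 M0 naive (grey) and 4 M1 (red) arrays, in log2 units relative to the 75th percentile of the array, with the mean and SD as black lines; the vertical axes differ between genes. In 15 of the 16 genes the groups do not overlap, from Il6 at -6.65 to -6.10 in M0 naive against 5.17 to 5.68 in M1. In Adgre1 they do. The 16 genes were picked for display, and over all genes tested the share without overlap was 34.0%.

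The promoters of 6 genes with large changes, picked after their values were seen, are shown because each holds letters recognised by a factor of the IFN-gamma or LPS pathway. They are the 250 bases before the gene's start, from RefSeq on build GRCm38.p6 and written 5′ to 3′ on the strand of the gene, with matches in capitals. The genes are Il6, Mrc1, Socs1, Serpina3g, Gbp2 and Acod1. Il6 (chr5:30012864-30013113, plus strand) and Mrc1 (chr2:14229164-14229413, plus strand) hold a kappa B match, the letters bound by NF-kB. Acod1 (chr14:103046762-103047011, plus strand) also holds a kappa B match. Socs1 (chr16:10785537-10785786, minus strand) holds a pair of ISRE core matches that share 3 bases, the letters bound by interferon regulatory factors. Gbp2 (chr3:142620413-142620662, plus strand) holds 1 ISRE core match on the opposite strand. Serpina3g (chr12:104235897-104236146, plus strand) holds a kappa B and a GAS match.
Il6: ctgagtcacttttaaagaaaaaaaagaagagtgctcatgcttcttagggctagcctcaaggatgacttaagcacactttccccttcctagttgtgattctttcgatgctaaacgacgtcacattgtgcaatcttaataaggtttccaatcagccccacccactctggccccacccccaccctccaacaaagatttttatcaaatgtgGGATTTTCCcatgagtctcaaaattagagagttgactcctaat
Mrc1: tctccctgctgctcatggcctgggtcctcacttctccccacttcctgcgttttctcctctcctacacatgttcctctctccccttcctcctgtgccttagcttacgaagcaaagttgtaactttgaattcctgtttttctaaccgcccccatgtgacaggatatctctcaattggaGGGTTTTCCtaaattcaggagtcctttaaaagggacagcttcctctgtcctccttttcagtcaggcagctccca
Socs1: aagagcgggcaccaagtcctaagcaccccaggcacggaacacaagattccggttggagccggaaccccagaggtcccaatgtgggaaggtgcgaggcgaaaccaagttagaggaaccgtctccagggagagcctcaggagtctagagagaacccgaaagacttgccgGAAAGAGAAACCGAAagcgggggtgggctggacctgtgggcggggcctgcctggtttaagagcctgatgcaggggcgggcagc
Serpina3g: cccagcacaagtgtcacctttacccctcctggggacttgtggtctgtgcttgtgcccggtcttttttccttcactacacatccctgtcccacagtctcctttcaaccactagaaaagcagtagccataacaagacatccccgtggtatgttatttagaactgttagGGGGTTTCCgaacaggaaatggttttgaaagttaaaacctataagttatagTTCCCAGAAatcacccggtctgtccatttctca
Gbp2: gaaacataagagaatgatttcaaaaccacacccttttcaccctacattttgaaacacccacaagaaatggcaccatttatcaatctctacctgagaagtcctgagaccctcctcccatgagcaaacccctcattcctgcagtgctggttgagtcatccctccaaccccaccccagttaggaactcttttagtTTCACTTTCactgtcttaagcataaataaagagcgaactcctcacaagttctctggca
Acod1: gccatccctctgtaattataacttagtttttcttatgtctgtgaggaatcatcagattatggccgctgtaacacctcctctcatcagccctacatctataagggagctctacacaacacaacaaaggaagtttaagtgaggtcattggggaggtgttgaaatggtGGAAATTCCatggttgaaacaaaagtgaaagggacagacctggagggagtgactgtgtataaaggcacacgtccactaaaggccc

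Across promoters, the search covered 3 motifs on both strands: GAS as TTCNNNGAA, the ISRE core as GAAANNGAA, and kappa B as GGANTTTCC or GGGNNTTCC, each counted whether or not it overlapped another. A promoter window was at hand for 12615 of the genes tested, and where RefSeq lists several starts the first was used. GAS occurred in 6.45% of these windows, the ISRE core in 6.66% and kappa B in 6.79%, and over all 27025 windows in the table in 7.18%, 7.16% and 5.87%. Among 2423 genes that rose the shares were 6.97%, 8.42% and 7.64%, close to the background. Among the 239 that rose by 3 or more they were 10.0%, 11.7% and 13%. Among the 251 that fell by 3 or more they were 3.98%, 7.97% and 7.17%. Of 11 interferon-induced GTPase promoters, 10 (90.9%) held the ISRE core and 6 (54.5%) GAS. Of 26 promoters of antiviral genes, 12 (46.2%) held the ISRE core and 6 (23.1%) GAS. Of 16 promoters of NF-kB subunits and regulators, 10 (62.5%) held kappa B. Of 18 promoters of MHC class I and peptide loading genes, 5 (27.8%) held kappa B, 4 (22.2%) the ISRE core and 2 (11.1%) GAS. Of 33 promoters of glycolysis and hypoxia genes none held GAS, and 2 (6.06%) held the ISRE core and 2 kappa B. Of 18 promoters of mitosis genes none held GAS, 1 (5.56%) held the ISRE core and 2 (11.1%) kappa B. Members of a gene family share sequence by descent, a match is a description of letters and not a bound site, and no test was made. The Mrc1 promoter shows that a match also occurs in a gene that fell.

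**Figure D3:**
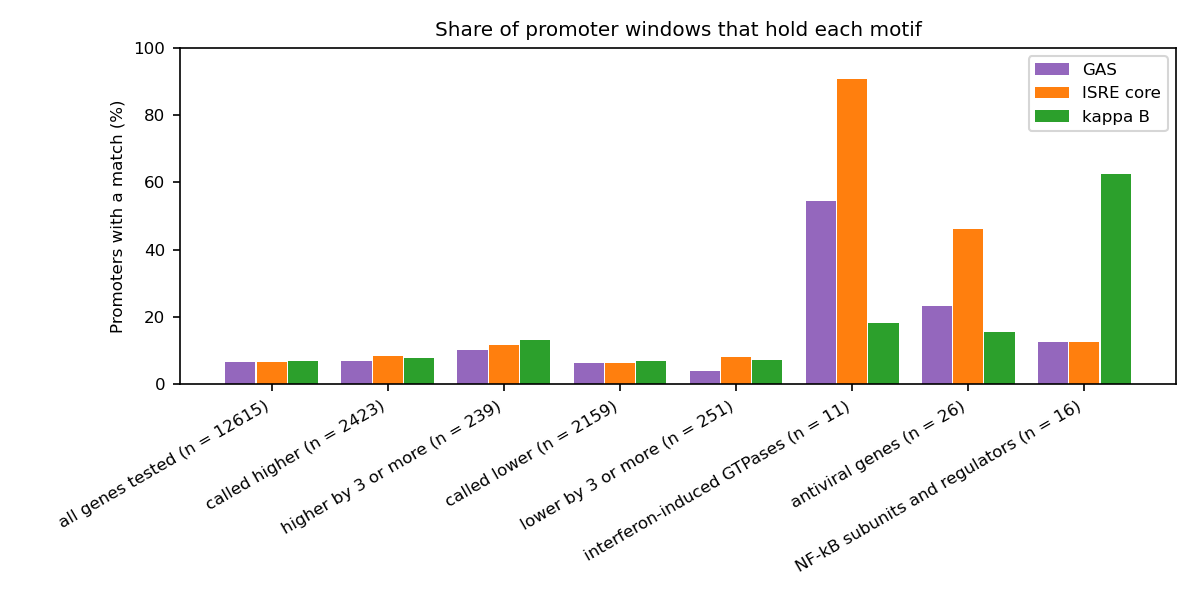
Share of promoter windows (250 bases before the gene start, in percent) that hold GAS, the ISRE core or kappa B, in all genes tested, in called genes by direction and size, and in 3 gene lists, with the number of promoters in each group. The highest bars are the ISRE core in interferon-induced GTPases (90.9%) and kappa B in NF-kB subunits and regulators (62.5%), against 6.66% and 6.79% in all genes tested.

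At the level of receptors and adaptors, 13 of 25 genes rose and 4 fell, with a median of 0.64. Ifngr1, the ligand-binding chain of the IFN-gamma receptor, read 5.19, 5.05, 4.74 and 4.95 in M0 naive and 3.60, 3.55, 3.51 and 3.67 in M1 and fell by 1.40 ± 0.16 (adjusted p = 4.0e-06). Tlr4 fell by 0.82 ± 0.29 (adjusted p = 0.0434), close to the threshold, and with 1 M0 naive array or 1 M1 array left out its adjusted p ran from 0.0411 to 0.107, the call being kept only without M0 naive replicate 3. It was also lost with arrays centred on the median and with no filter. Irak1, a kinase below TLR4, fell by 1.02 ± 0.25, a call lost with the mean of its probes. Ifnar1, a chain of the type I interferon receptor, fell by 0.68 ± 0.22, although the mean of its 3 probes was 0.042, and the call was also lost with median centring, with no filter, and without M0 naive replicate 1, 2 or 4 or M1 replicate 3. Cd14, the co-receptor that hands LPS to TLR4, rose by 2.37 ± 0.21, Irak3, an inhibitor of the same pathway, by 2.86 ± 0.23, Jak2 by 2.29 ± 0.19 and the TRIF-side adaptor Ticam2 by 2.23 ± 0.46.

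In a list of STAT and interferon regulatory factor genes that also holds other regulators such as Batf2 and Batf3, 10 of 21 rose and 4 fell (median 0.62). Irf1, an interferon regulatory factor induced by IFN-gamma, read 4.86, 4.74, 4.21 and 4.68 in M0 naive and 8.52, 8.19, 8.20 and 8.37 in M1, a rise of 3.70 ± 0.19 (adjusted p = 6.4e-10). Irf7, which amplifies type I interferon, rose by 3.41 ± 0.23 and Batf2 by 4.23 ± 0.23. Ciita and Nlrc5, the transactivators of MHC class II and class I genes, rose by 2.08 ± 0.37 and 1.97 ± 0.32. Irf8, often counted among M1 regulators, measured -0.53 ± 0.21 (adjusted p = 0.071) and was not called, while Batf3 fell by 1.13 ± 0.19 and both Stat5a and Stat5b fell (-0.69 ± 0.20 and -0.65 ± 0.20). Both of these calls were lost with arrays centred on the median, and that of Stat5b also without M0 naive replicate 1 or 2 or M1 replicate 2 or 3. Irf4 fell by 1.07 ± 0.34 and was above background on 1 M1 array and 3 M0 naive arrays, with overlapping levels, and its call was lost without M1 replicate 3, with the 8 arrays alone, and with quantile scaling, median centring or normexp background correction.

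The inhibitors that end cytokine signalling split into members that rose and members that fell, 6 of 14 each (median 0.19, range 0.023 to 0.32, the lowest without M1 replicate 3). Socs1, which blocks JAK kinases, read -0.19, -0.43, -0.66 and -0.44 in M0 naive and 4.82, 4.70, 4.80 and 4.94 in M1, a rise of 5.25 ± 0.15 (adjusted p = 2.6e-12). Its promoter is the one with a pair of ISRE core matches. Socs3 rose by 6.09 ± 0.22, Cish by 3.32 ± 0.20 and Usp18, which restrains type I interferon signalling, by 2.52 ± 0.18. Socs5, Sh2b3 and Socs6 fell (-2.17 ± 0.28, -1.82 ± 0.23 and -1.55 ± 0.31), and Socs2 measured -0.02 ± 0.44. The NF-kB list moved more uniformly, with 14 of 19 members higher and 1 lower (median 1.46). Traf1, a signalling adaptor and NF-kB target, read 1.38, 1.12, 0.62 and 1.06 in M0 naive and 7.64, 7.43, 7.35 and 7.53 in M1 and rose by 6.44 ± 0.17. The inhibitors Nfkbie, Nfkbia and Tnfaip3 rose by 3.20 ± 0.26, 2.75 ± 0.17 and 2.63 ± 0.21, and the RNase Zc3h12a by 2.89 ± 0.23. Cyld, a deubiquitinase of the pathway, was the member that fell (-0.97 ± 0.25), a call lost with the mean of its probes (adjusted p = 0.507). Nfkb1 measured 0.50 ± 0.31 and was not called.

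The interferon-induced GTPases, which attack the vacuoles of intracellular microbes, had the highest median of the lists, 4.27 against -0.12 over all genes. In this list 21 of 22 members rose and none fell. Gbp2 read 2.58, 2.37, 1.72 and 2.46 in M0 naive and 8.99, 8.81, 8.87 and 8.96 in M1, a rise of 6.63 ± 0.19 (adjusted p = 2.8e-12). Gbp4 rose by 7.65 ± 0.23, Gbp11 by 7.39 ± 0.24, Gbp5 by 6.27 ± 0.25 and Tgtp2 by 5.58 ± 0.18. Irgm1, a regulatory member, rose by 2.52 ± 0.22. Gm4841 was above background on no M0 naive array and was at least 43.4-fold higher in M1, and Gbp2b was at least 1.75-fold higher on the same footing, a call lost with normexp background correction. The member that was not called, Gbp6, depended on the probe. Its brightest probe measured 0.28 ± 0.81 and its other probe 5.97 ± 0.25 (adjusted p = 1.0e-10). These genes lie in families of close copies, so that probes may read more than 1 member.

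Antiviral interferon-stimulated genes rose in 25 of 34 members and fell in 1 (median 1.85). Isg15, a ubiquitin-like protein, read 4.74, 4.52, 4.69 and 4.96 in M0 naive and 8.31, 8.51, 8.22 and 8.78 in M1, a rise of 3.73 ± 0.21. Rsad2, the gene of viperin, rose by 3.92 ± 0.23, Oasl1 by 3.76 ± 0.19, Mx2 by 3.75 ± 0.16 and Mx1 by 2.49 ± 0.22. The list was not uniform: Ifit3 read 3.33 to 4.00 in M0 naive and 3.79 to 4.04 in M1, which overlap, and measured 0.20 ± 0.20. Both probes of the related Ifit3b fell (-1.52 ± 0.21 and -3.32 ± 0.27). Dhx58 and Sp100 measured 0.31 ± 0.21 and 0.33 ± 0.17. Xaf1 had probes called in both directions, 2.58 ± 0.23 and -1.10 ± 0.21. Ifnb1, the gene of interferon-beta, was above background on all 4 M1 arrays and on no M0 naive array, at least 1.85-fold higher (adjusted p = 0.0171), a call lost with normexp background correction (adjusted p = 0.275).

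Antigen presentation genes were higher in M1 for both classes of MHC. For class I, 15 of 20 genes rose and 1 fell (median 1.26). Tap1, a subunit of the peptide transporter, rose by 3.68 ± 0.32, Tapbpl by 3.56 ± 0.19, Tap2 by 2.59 ± 0.21 and the immunoproteasome subunit Psmb8 by 1.30 ± 0.21. H2-K1, a classical heavy chain, read 8.98, 8.80, 8.57 and 8.81 in M0 naive and 9.66, 9.45, 9.65 and 9.68 in M1 and rose by 0.82 ± 0.17. B2m, the light chain, measured 0.33 ± 0.21 and the chaperone Canx fell by 1.01 ± 0.21. For class II, 8 of 13 genes rose and none fell (median 2.32). H2-Ab1 read 4.72, 4.26, 3.67 and 4.25 in M0 naive and 8.45, 8.17, 8.27 and 8.39 in M1, a rise of 4.09 ± 0.21. The invariant chain Cd74 rose by 3.81 ± 0.24 and H2-Oa, part of the regulator of peptide exchange, by 4.97 ± 0.29. Ctss, the protease that trims the invariant chain, measured -0.07 ± 0.17.

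Co-stimulators and checkpoint ligands rose in 13 of 21 members and fell in 4 (median 1.94, range 0.83 with normexp to 2.16). Cd40, through which T cells activate macrophages, read 0.13, -0.25, -0.84 and -0.27 in M0 naive and 5.28, 5.10, 4.93 and 5.21 in M1 and rose by 5.44 ± 0.21. Cd274, the inhibitory ligand PD-L1, read 4.07, 3.79, 3.26 and 3.88 against 8.62, 8.28, 8.08 and 8.42 and rose by 4.60 ± 0.25. Cd86 rose by 2.13 ± 0.20, whereas Cd80, its partner as a ligand of CD28, overlapped between the groups and measured -0.59 ± 0.30 (adjusted p = 0.173). Slamf1 was at least 129-fold higher and Ido1, which degrades tryptophan, at least 5.38-fold higher, both above background on no M0 naive array. Cd200r1 and Icosl fell (-2.54 ± 0.25 and -2.34 ± 0.22), as did Sirpa, the receptor of the CD47 signal (-1.63 ± 0.18).

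Of 21 cytokine genes tested, 13 rose and 1 fell (median 2.69, but 0.99 with no filter and 1.45 with normexp). Besides Il6 and Il1b, Il1a was at least 527-fold and Csf3, the gene of granulocyte colony-stimulating factor, at least 18.2-fold higher in M1. Tnf read 1.72, 1.40, 0.96 and 1.38 in M0 naive and 5.68, 5.52, 5.61 and 5.58 in M1, a rise of 4.23 ± 0.23 (adjusted p = 1.8e-09). Il1rn, the interleukin-1 receptor antagonist, rose by 5.02 ± 0.25, Il18bp by 4.30 ± 0.22 and Il10 by 2.83 ± 0.25. Il12b, which encodes the p40 subunit of interleukin-12, was not tested because it was above background on 1 M1 array and no M0 naive array. Il12a, Il23a and Ifng were not tested either, being above background on 0, 0 and 1 M1 arrays. Csf1, Ltb and Ebi3 measured -0.13 ± 0.20, -0.03 ± 0.17 and -0.08 ± 0.22, and Tgfb1 fell by 1.03 ± 0.24.

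Among CXC and related chemokine genes 7 of 15 rose and 7 fell. Their median was 0.12, and it was -0.05 without M0 naive replicate 1, 0.28 without M0 naive replicate 3 and -0.25 with no filter. Among CC chemokine and receptor genes 8 of 18 rose and 5 fell. Their median was 0.46, and it was 0.20 without M1 replicate 2, 0.18 with normexp and 0.25 with no filter. Cxcl9, a ligand of the T cell receptor CXCR3, read -1.89, -2.66, -3.30 and -2.36 in M0 naive and 4.91, 4.69, 4.79 and 5.0 in M1, a rise of 7.40 ± 0.40. Cxcl10, of the same family, rose by 4.92 ± 0.24, while Cxcl11 measured 0.12 ± 0.25. Ligands that draw neutrophils were higher: Cxcl3 was at least 453-fold higher, and Cxcl2 and Cxcl1 rose by 4.84 ± 0.26 and 3.55 ± 0.78. Ccl2 and Ccl7, which draw monocytes through CCR2, rose by 5.73 ± 0.26 and 5.07 ± 0.25, and Ccl5 by 2.75 ± 0.18. Ccl3 overlapped between groups and measured 0.01 ± 0.30, and Ccl4, a related chemokine, read 5.69, 5.29, 5.26 and 5.37 in M0 naive and 3.87, 3.51, 3.65 and 3.96 in M1 and fell by 1.66 ± 0.17. Ccl6 fell by 5.92 ± 0.19, as did Ccl9 (-3.33 ± 0.19). Cx3cr1, a chemokine receptor of monocytes, fell by 5.38 ± 0.32 and was above background on 1 of 4 M1 arrays, and Ccr2 fell by 3.55 ± 0.32.

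Genes of inflammasomes and cell death rose in 10 of 22 members and fell in 2 (median 0.81). Cflar, an inhibitor of caspase-8, rose by 3.44 ± 0.30, the necroptosis effector Mlkl by 2.42 ± 0.40, Casp4, the mouse sensor of cytosolic LPS, by 2.41 ± 0.20 and Casp1 by 1.99 ± 0.21. The adaptor Pycard fell by 1.52 ± 0.19 as did the DNA sensor Aim2 (-1.23 ± 0.28). Nlrc4 and Naip5 measured 0.20 ± 0.28 and 0.19 ± 0.28.

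Of 18 genes of arginine and nitric oxide metabolism 7 rose and 7 fell (median 0.17, range 0.04 to 0.28, the ends being without M0 naive replicate 3 and 1). Slc7a2, an arginine transporter, read -4.13, -3.92, -3.63 and -4.59 in M0 naive and 3.82, 3.90, 3.78 and 3.98 in M1, a rise of 7.94 ± 0.25. Ass1, which rebuilds arginine from citrulline, rose by 2.75 ± 0.21 and Gch1, the first enzyme of the Nos2 cofactor tetrahydrobiopterin, by 1.83 ± 0.17. Arginases, which compete for arginine, were also higher: Arg1 was at least 25.8-fold higher in M1, where it read 0.22, 0.43, -0.06 and 0.44, and Arg2 rose by 4.54 ± 0.35. Ddah2, which clears an inhibitor of nitric oxide synthases, fell by 2.86 ± 0.17, and the polyamine genes Sat1 and Srm fell as well (-1.35 ± 0.19 and -0.92 ± 0.26), the call of Srm being lost with arrays centred on the median. Odc1, the entry enzyme of polyamine synthesis, rose by 1.28 ± 0.15.

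In the glycolysis and hypoxia list 30 of 35 genes rose and 2 fell (median 1.89). The glucose transporter Slc2a1 read 2.47, 2.59, 2.25 and 2.61 in M0 naive and 6.73, 6.64, 6.64 and 6.78 in M1 and rose by 4.22 ± 0.20. Slc16a3, which exports lactate, rose by 4.55 ± 0.20, and Hif1a, the oxygen-regulated subunit of the hypoxia-inducible factor, by 2.06 ± 0.32. The hypoxia targets Ak4, Egln3 and Bnip3 rose by 7.54 ± 0.24, 5.40 ± 0.29 and 4.42 ± 0.21. Enzymes of glycolysis that rose included Hk2 (2.16 ± 0.22), Pfkl (3.05 ± 0.26), Tpi1 (2.73 ± 0.23), Pgk1 (2.70 ± 0.21) and Ldha (1.79 ± 0.14). Hk1, another hexokinase, was called lower by its brightest probe (-1.54 ± 0.14) and higher by its other probes (1.81 ± 0.17 and 1.99 ± 0.25), and Slc2a3 fell by 0.86 ± 0.22, a call lost with arrays centred on the median.

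The TCA cycle list had 6 of 23 genes higher and 6 lower (median 0.10, range -0.05 to 0.17, below 0 with quantile scaling and without M0 naive replicate 3). Acod1, which diverts the cycle to itaconate and whose promoter holds a kappa B match, read 4.11, 3.83, 3.45 and 3.79 in M0 naive and 9.32, 9.10, 9.23 and 9.31 in M1, a rise of 5.44 ± 0.17. Of the isocitrate dehydrogenases that fell, Idh1, the cytosolic enzyme, read 1.25, 1.10, 0.93 and 1.28 against -2.0, -1.82, -2.03 and -1.62 and fell by 3.01 ± 0.19, as did Idh2 (-1.90 ± 0.20) and Idh3g (-1.26 ± 0.20). Suclg2 fell by 2.14 ± 0.41, while Sdhd and Mdh2 rose by 1.28 ± 0.19 and 1.06 ± 0.20. Respiratory chain subunits had the fewest calls of the metabolic lists, 2 of 27 higher and 1 lower (median -0.05, range -0.18 to 0.03, above 0 without M0 naive replicate 1 or M1 replicate 2), where 36.5% of RefSeq-named genes and 28.2% of all genes were called. Cyc1 and Cycs rose by 1.28 ± 0.24 and 0.92 ± 0.21, Cox4i1 fell by 0.71 ± 0.18, a call lost with arrays centred on the median, and Ndufs7 and Ndufv1 measured 0.02 ± 0.20 and 0.03 ± 0.22.

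**Figure D4:**
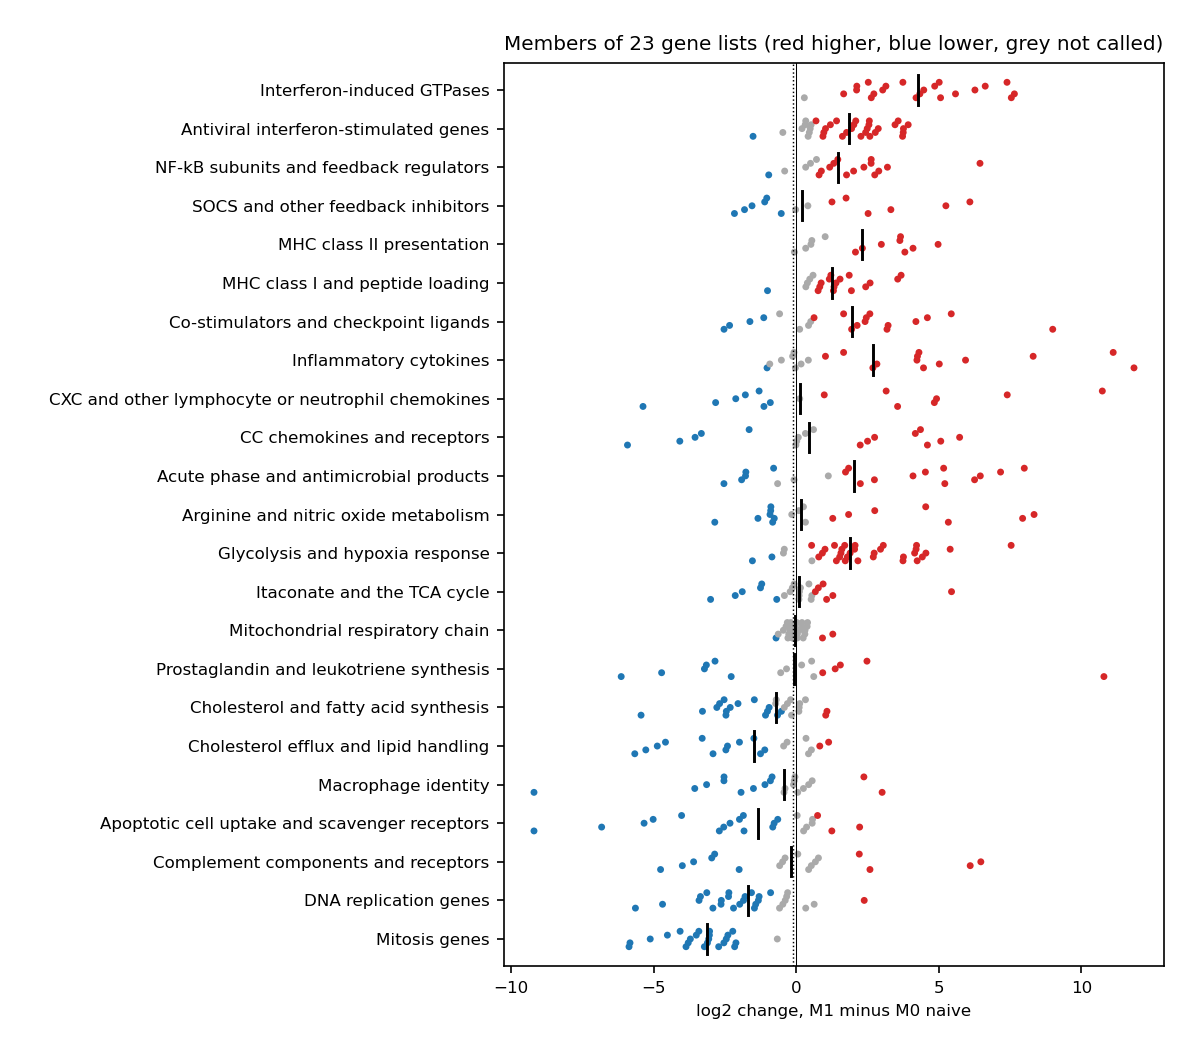
log2 change (M1 minus M0 naive) of every tested member of 23 gene lists, 1 point per gene, red for genes called higher, blue for lower and grey for those not called. The black bars are list medians and the dotted line the median of all genes (-0.12); medians run from 4.27 in interferon-induced GTPases to -3.12 in mitosis genes.

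The 2 cyclooxygenase genes moved in opposite directions. Ptgs2, the inducible enzyme, read -5.87, -5.10, -3.19 and -4.54 in M0 naive, where it was above background on 1 array, and 6.14, 6.11, 5.89 and 6.33 in M1, a fitted rise of 10.79 ± 0.41, which takes in 3 M0 naive readings not above background. Ptgs1, the constitutive enzyme, read 2.91, 2.24, 1.73 and 2.25 in M0 naive and -4.62, -4.45, -2.35 and -4.02 in M1, where it was above background on 2 arrays. Its fitted fall of 6.14 ± 0.40 takes in M1 readings not above background. Over the list 5 of 16 genes rose and 6 fell (median -0.08, range -0.18 to 0.05, above 0 with quantile scaling and without M0 naive replicate 1). The phospholipase Pla2g4a and the prostaglandin E synthase Ptges rose by 2.48 ± 0.20 and 0.93 ± 0.23. Hpgd, which inactivates prostaglandins, was at least 6.79-fold lower and Alox5, the first enzyme of leukotriene synthesis, at least 3.86-fold lower, both above background on no M1 array. Tbxas1, the thromboxane synthase, fell by 3.22 ± 0.21.

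Lipid genes were lower in M1. Of 27 genes of cholesterol and fatty acid synthesis 15 fell and 2 rose (median -0.72). Idi1, an enzyme of isoprenoid synthesis, read 2.70, 2.51, 2.41 and 2.65 in M0 naive and -1.37, -0.73, 0.15 and -0.95 in M1 and fell by 3.29 ± 0.27, as did Cyp51 (-2.69 ± 0.28), and Fasn, the fatty acid synthase, was at least 2.07-fold lower and above background on no M1 array. Of 19 genes of cholesterol efflux and lipid handling 12 fell and 2 rose (median -1.49). Apoe, the lipid carrier, read 9.04, 8.60, 8.08 and 8.57 in M0 naive and 3.23, 2.69, 2.94 and 2.76 in M1 and fell by 5.67 ± 0.20. Pparg, the nuclear receptor that directs lipid uptake, read 4.47, 4.11, 3.58 and 4.02 against -1.03, -1.24, -1.44 and -1.23 and fell by 5.28 ± 0.21, as did Fabp4 (-4.88 ± 0.22) and Lpl (-4.59 ± 0.21). Abca1 and Abcg1, the efflux pumps, measured 0.53 ± 0.26 and 0.43 ± 0.17 and were not called.

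Of 23 mitosis genes 22 fell and none rose (median -3.12), and the remaining member, Tpx2, measured -0.67 ± 0.24. Ccna2, the cyclin of S phase and entry into mitosis, read 2.35, 1.86, 1.31 and 1.85 in M0 naive and -4.70, -4.36, -3.19 and -3.86 in M1 and fell by 5.87 ± 0.32. Mki67, the antigen of dividing cells, read 3.48, 3.20, 2.70 and 3.22 against 0.61, 0.67, 0.83 and 0.89 and fell by 2.40 ± 0.22. Kif20a and Kif11, motors of the spindle, were at least 39.4-fold and 7.77-fold lower, above background on no M1 array. Of 28 DNA replication genes 20 fell and 1 rose (median -1.69). Tk1 fell by 5.64 ± 0.21, as did Pole, a replicative polymerase (-4.69 ± 0.26) and Mcm5, a subunit of the replicative helicase (-3.14 ± 0.23). Ccne1, the cyclin of the G1 to S transition, was the member that rose, by 2.38 ± 0.22. Inhibitors of the cycle and p53 targets rose in 5 of 17 members and fell in 4 (median 0.29, range 0.09 with quantile scaling to 0.34): Cdkn1a, the gene of p21, rose by 2.07 ± 0.25 and Gadd45g by 3.23 ± 0.20, while Cdkn2c and Sesn1 fell (-3.31 ± 0.18 and -5.18 ± 0.20).

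Although Adgre1, Csf1r and Spi1 were not called, other identity genes were lower, 10 of 21 against 2 that rose (median -0.43). The transcription factor Maf, which helps keep macrophages differentiated, fell by 3.56 ± 0.29, as did Lyz2, the lysozyme used to mark myeloid cells (-2.54 ± 0.26). Cebpb rose by 3.01 ± 0.19. Fcgr1, the high-affinity receptor for antibody known as an IFN-gamma target, read 4.34, 3.96, 3.81 and 4.05 in M0 naive and 3.37, 2.90, 3.01 and 3.24 in M1 and fell by 0.91 ± 0.19. Among 12 Fc receptor and oxidase genes 4 rose and 2 fell (median 0.21, range 0.11 to 0.31, the ends being without M0 naive replicate 3 and 1), with the antibody receptor Fcgr4 at 1.63 ± 0.21 and the oxidase subunit Cybb at 1.23 ± 0.21 among the rises.

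Receptors and bridging molecules for apoptotic cells and modified lipids were lower in 14 of 22 members and higher in 3. Their median was -1.33, and it was -0.68, -0.76 and -0.83 without M0 naive replicate 1, 2 or 4, and -0.80 with no filter. Cd5l, a protein secreted by resident macrophages, read 8.09, 7.53, 7.39 and 7.59 in M0 naive and 0.87, 0.71, 0.67 and 1.04 in M1 and fell by 6.83 ± 0.21. Gas6 and Pros1, which bridge apoptotic cells to the receptors Axl and Mertk, fell (-5.34 ± 0.21 and -4.02 ± 0.26), while Mertk measured 0.56 ± 0.25 (adjusted p = 0.113). The scavenger receptor Stab2 measured -5.02 ± 0.27 with its brightest probe, but without M0 naive replicate 1, 2 or 4 another of its 3 probes was brightest and measured 0.03, 0.33 and 0.36. Marco, a receptor for bacteria, rose by 1.25 ± 0.20. Of 18 complement genes 4 rose and 6 fell (median -0.17, range -0.53 with the mean of a gene's probes to -0.06 with array weights). C1qa, of the classical initiator C1q, read 5.39, 4.93, 4.91 and 5.13 in M0 naive and 0.23, 0.14, 0.57 and 0.38 in M1 and fell by 4.76 ± 0.24, and C1qb and C1qc fell (-3.60 ± 0.25 and -4.0 ± 0.17). Factor B of the alternative pathway, Cfb, rose by 6.47 ± 0.31 and C3 by 2.58 ± 0.22, and the protease C1s1 was at least 41.8-fold higher. The receptor C5ar1 fell by 2.97 ± 0.20.

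Among Toll-like, C-type lectin and related receptors 8 of 25 rose and 10 fell (median -0.15, range -0.25 without M1 replicate 2 to -0.05 without M1 replicate 3). The formyl peptide receptors Fpr1 and Fpr2 rose by 7.04 ± 0.18 and 6.27 ± 0.35, Clec4e (Mincle) by 4.44 ± 0.19, and Nod1 and Nod2, sensors of bacterial cell wall, by 3.66 ± 0.20 and 3.40 ± 0.23. The endosomal RNA sensor Tlr7 fell by 2.75 ± 0.17 as did the lectins Clec10a and Clec4a3 (-2.97 ± 0.20 and -2.77 ± 0.26). Clec12a was at least 5.41-fold lower. Tlr9 and Trem1 measured -0.20 ± 0.21 and 0.17 ± 0.18.

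Acute phase and antimicrobial genes rose in 12 of 20 members and fell in 5 (median 2.04). Saa3, the serum amyloid of macrophages, read 5.58, 5.27, 5.07 and 5.67 in M0 naive and 9.81, 9.87, 10.0 and 10.01 in M1, a rise of 4.53 ± 0.20. Orm1 rose by 7.17 ± 0.42, and Saa2 and Orm3 were at least 22.02-fold and 22.1-fold higher. Among iron genes, Slc40a1, the iron exporter ferroportin, fell by 4.32 ± 0.22, as did Trf, transferrin (-5.51 ± 0.19), within a list of 17 with 3 higher and 6 lower (median -0.36). Hmox1, the heme oxygenase, rose by 3.56 ± 0.58, and Spic, the factor of iron-recycling macrophages, measured 0.18 ± 0.16. NRF2 targets rose in 11 of 22 and fell in 2 (median 0.90), with Slc7a11 at 6.02 ± 0.51, above background on 2 M0 naive arrays, Sod2 at 3.04 ± 0.19 and Nqo1 at 2.40 ± 0.25, whereas Nfe2l2, the gene of NRF2 itself, fell by 1.20 ± 0.24.

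Stress and early-response genes were mixed. In the endoplasmic reticulum and amino acid stress list 7 of 21 rose and 4 fell (median -0.04, range -0.14 to 0.11, above 0 without M0 naive replicate 1 or M1 replicate 1 or 2), with Trib3 at 3.92 ± 0.23 and Atf4 at 2.19 ± 0.18 among the rises, Atf6 at -1.31 ± 0.33 among the falls, and Asns at -0.04 ± 0.20. In the immediate early and heat shock list 8 of 19 rose and 6 fell (median 0.40). Ier3 and Hspa1a rose by 3.84 ± 0.21 and 3.78 ± 0.15, and Egr2 and Dusp2 fell (-4.19 ± 0.25 and -3.59 ± 0.21). Lysosomal genes rose in 7 of 26 and fell in 8 (median -0.06, range -0.12 with normexp to 0.0061 without M0 naive replicate 3): the proton pump subunit Atp6v0d2 fell by 3.38 ± 0.19 and the protease Ctsc rose by 2.67 ± 0.27.

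Matrix genes rose in 10 of 19 members and fell in 5 (median 0.96, range 0.62 with normexp to 1.12). Thbs1, a matrix glycoprotein, rose by 4.17 ± 0.25, and Timp2 and Spp1, osteopontin, fell (-4.91 ± 0.18 and -3.45 ± 0.31). Adhesion and purine receptor genes rose in 12 of 24 members and fell in 6 (median 0.74). Adora2a and Adora2b, receptors of adenosine that raise cyclic AMP, rose by 5.74 ± 0.48 and 4.34 ± 0.18, the NAD-consuming enzyme Cd38 by 5.42 ± 0.36 and Icam1 by 3.18 ± 0.34. P2ry12, a receptor of ADP, was at least 3.54-fold lower, and the integrin chains Itga6 and Itga4 fell (-3.37 ± 0.20 and -2.89 ± 0.22).

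Markers of other cell types were measured beside these groups. Of 18 neutrophil and granule genes tested, 11 fell and 4 rose (median -1.27, but -0.49 with normexp). S100a9, a calcium-binding protein of neutrophils and monocytes, read 7.26, 7.26, 7.08 and 7.27 in M0 naive and -1.19, -0.69, -1.35 and -0.92 in M1 and fell by 8.26 ± 0.22. The granule genes Ltf and Ngp were at least 63.1-fold and 27.2-fold lower, above background on no M1 array, while Elane and Prtn3 measured -0.05 ± 0.43 and -0.05 ± 0.24. Ly6g went the other way, reading -2.34, -1.96, -2.79 and -1.91 in M0 naive and 4.34, 4.16, 4.07 and 4.25 in M1, a rise of 6.46 ± 0.34, in a family of close copies. The mean level over the 18 genes was 0.65, 0.80, 0.74 and 0.84 on the M0 naive arrays and -0.68, -0.65, -0.81 and -0.55 on the M1 arrays, with 4 of the 18 genes above background on no M1 array. The part of neutrophil or granulocyte precursor content in the other results was not tested. Of 9 T and NK cell genes tested 2 fell, Cd28 (-4.42 ± 0.22) and Prf1 (-0.55 ± 0.19), the latter not called when M0 naive replicate 1, 2 or 4 or M1 replicate 3 or 4 was left out, with median centring or with no filter, of 8 B cell genes Cd79b fell by 4.41 ± 0.22, and none of either list rose. Of 9 dendritic cell genes 2 rose and 3 fell, with Zbtb46 at 3.38 ± 0.37 and Itgax at -2.86 ± 0.21. Of 5 fibroblast genes Dcn rose by 3.94 ± 0.39, and none of 6 endothelial genes was called.

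Markers of alternative activation were not uniformly low in M1, with 9 of 21 genes lower and 6 higher. Their median was -0.02, and with 1 array left out it ran from -0.60 without M1 replicate 3 to 0.18 without M0 naive replicate 3, and was -0.37 and -0.47 without M1 replicate 2 or 4. Mrc1, Egr2 (-4.19 ± 0.25), Clec10a and Chil3 (-2.56 ± 0.22) fell, while Arg1, Tgm2 (3.99 ± 0.22), Klf4 (3.76 ± 0.27) and Mgl2 (2.26 ± 0.18) were higher. Retnla read 1.74, 1.54, 0.95 and 1.34 in M0 naive and -0.42, -0.41, -0.45 and -0.01 in M1, without overlap, and its change of -1.71 ± 0.70 was not called (adjusted p = 0.0818). The shared fit takes in the post-sepsis M0 arrays, on which Retnla varied with an SD of 2.12 (n = 4), and with the 8 arrays alone its adjusted p was 1.6e-04.

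Values against the M2 cultures show where M1 stood beside another polarized state. The comparison uses the same M1 arrays, so its values stand beside those above and are no independent support. Nos2 was 6.84 ± 0.16 higher in M1 than in M2, and Arg1 differed by -5.40 ± 0.31, so that Arg1 was not above background in M0 naive, intermediate in M1 and highest in M2. The differences of M1 from M2 were -9.59 ± 0.22 for Chil3, -10.16 ± 0.70 for Retnla and -11.42 ± 0.24 for Mrc1, each lower in M1. The value for Mrc1 is a fitted difference that takes in M1 readings not above background, so its size is not a measured one. Cd74 stood at 6.73 in M1 and 6.85 ± 0.32 in M2 (SD, n = 4), a difference of -0.12 ± 0.24 (adjusted p = 0.766), which was not called. Cx3cr1 was low in both, a fitted 0.30 ± 0.32 apart (adjusted p = 0.545), and Ciita 0.18 ± 0.37 apart. Most M1 readings of Cx3cr1 were not above background, so its difference does not show that the levels were alike. Socs1 was 0.85 ± 0.15 higher in M1 than in M2 (adjusted p = 3.9e-04). Ifit3, not called between M1 and M0 naive, was 5.07 ± 0.20 higher in M1 than in M2, and Cd14 6.39 ± 0.21 higher.

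**Figure D5:**
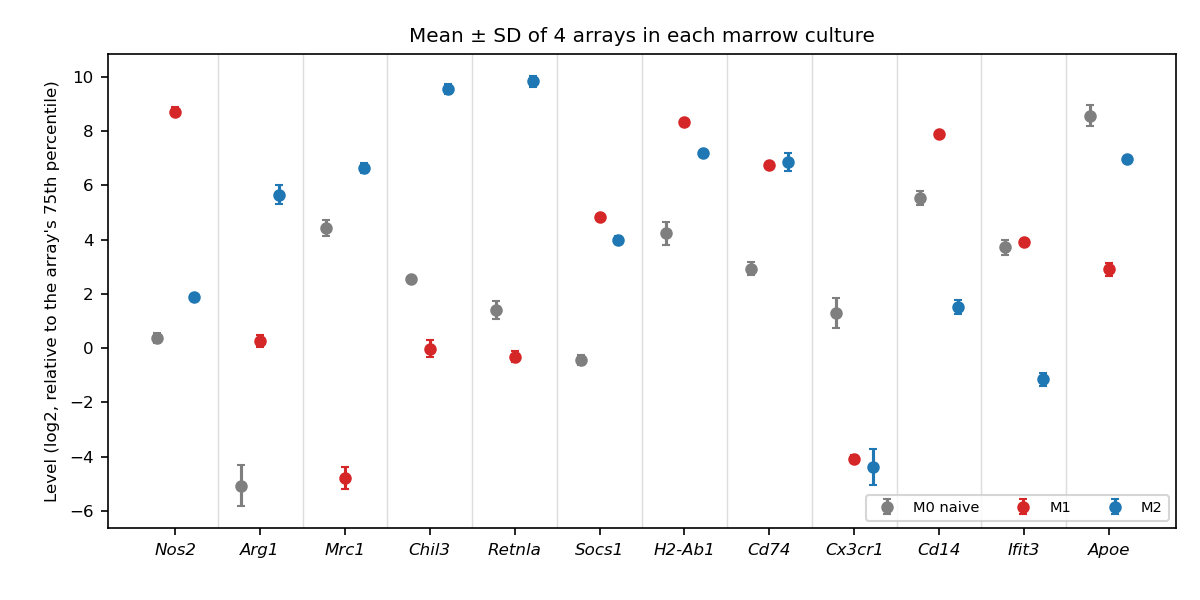
Mean level ± SD (n = 4 arrays) of 12 genes in M0 naive (grey), M1 (red) and M2 (blue), in log2 units relative to the 75th percentile of the array; levels are to be compared within a gene only. Nos2 is highest in M1, Arg1, Chil3, Retnla and Mrc1 are highest in M2, and the M1 and M2 values of Cd74 and Cx3cr1 lie together. Most M1 readings of Cx3cr1 were not above background.

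Large rises were also measured in genes outside these lists. Inhba, the subunit of activin A, read -3.72, -4.11, -2.69 and -4.06 in M0 naive and 6.37, 6.17, 5.86 and 6.33 in M1, and rose by 9.83 ± 0.31, the largest rise among genes above background on 3 or 4 arrays of both groups. Procr, the endothelial protein C receptor, rose by 8.20 ± 0.19, and the protease inhibitors Serpina3g and Serpina3f by 8.16 ± 0.24 and 7.89 ± 0.29. The Serpina3g promoter is the one with both a GAS and a kappa B match. Upp1, a uridine phosphorylase, rose by 7.20 ± 0.20, Pdpn, podoplanin, by 7.08 ± 0.23 and the proteoglycan Sdc1 by 6.57 ± 0.24. Of genes above background on no M0 naive array, Mgarp, a mitochondrial protein, was at least 196-fold and the hormone gene Stc2 at least 74.0-fold higher. Among the falls, Pcp4l1 and Rgs18, a regulator of G proteins, were at least 314-fold and 84.0-fold lower, Rab3il1 fell by 5.82 ± 0.21, and so did Cbr2 (-5.69 ± 0.22) and F13a1, the coagulation factor XIII subunit of macrophages (-5.37 ± 0.26).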

How the data were processed

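Total RNA (100 ng) of marrow cultures was labelled for Agilent 1-colour arrays. The deposited files hold processed signal intensity per spot, background-subtracted by the authors with Agilent Feature Extraction, version 10.7.3.1 per the file headers and 12.5 per the submitters' processing notes. Probe annotation refers to mm9 per the file headers. Control spots were left out, spots of a probe averaged, log2 taken of the deposited intensity and the 75th percentile of each array subtracted. A probe was kept where the scanner software marked it well above background on 3 or 4 arrays of M1 or of M0 naive (35287 probes). Names came from RefSeq accessions and symbols.

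limma 3.58.1 (R 4.3.3) fitted all 16 marrow culture arrays together, with Benjamini-Hochberg adjustment over the 35287 probes kept. The brightest probe of each of the 29527 genes was taken after that adjustment. Adjusted p-values in the text are from this fit. The code was also tested on simulated data, with far fewer changed genes than were called here. There it missed many changes of moderate size and some large ones. The mark it had to reach there was lowered after this was seen, with the fit unchanged, so a gene not called is not shown to be unchanged. Alternatives were quantile scaling, median centring, normexp (offset 50), other filters, 8 arrays alone, slide or replicate number as a block, probe means, array weights and left-out arrays. Arrays labelled TAM and the series' value table were not used here. Some members of the lists are counted and not reported here by name.

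Genes were named by rule: a set of M1 genes, the 5 largest rises and falls and the 3 smallest uncalled changes of each of 45 lists, the 20 largest changes and bounds each way, and list members with bounds. Gch1, Hk2, Il18bp, Ldha, Odc1, Pfkl, Pgk1, Tgtp2, Tpi1 and Xaf1 were named outside it after their values were seen. The comparison, lists and named genes were chosen with earlier results of these data known.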

Additional observations from a re-analysis of the deposited data

Results flagged for a closer look

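In 18 cases a gene named in the text had 1 of the 4 arrays of a group far from the other 3 (Dixon's test), out of 540 groups examined. That is 3.33%, where chance gives about 1 in 20. M0 naive replicate 3 accounted for 11 of them. It was the lowest array for B2m (8.68), Chil3 (2.43), Elane (2.72), Ier3 (0.42), Ifit3b (0.84), Ltb (-1.64), Nfkb1 (-0.76) and S100a9 (7.08). It was the highest array for Ido1 (-5.55), Ptges (6.62) and Socs2 (-1.73). The same array had the lowest level of coding genes relative to noncoding probes, and the part of this in the results was not tested. M0 naive replicate 1 was lowest for Ngp (0.016). Among M1 arrays, replicate 2 was lowest for H2-K1 (9.45) and Itga6 (2.66), replicate 3 was lowest for Csf1 (0.51) and Cxcl2 (3.15), and replicate 4 was highest for Ccl2 (9.02) and Retnla (-0.013).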

How the results depend on the processing

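Across scaling, background correction, filters, probe choice, slide as a block and left-out arrays, the counts of genes called stayed within 1.5 times 3948 higher and 4379 lower, except that array weights gave 6211 and 7793, and a further requirement of a log2 change of at least 1 left 2581 higher. Leaving out 1 array gave 3316 to 4078 higher and 3828 to 4500 lower, and the share of calls that were higher ran from 43.9% to 51.2%. Among list counts, 4 arginine genes were lower with arrays centred on the median, 9 cell cycle inhibitors were higher with array weights, and 3 matrix genes were lower with quantile scaling, median centring or normexp. With 1 array left out the matrix count ran from 3 to 5, and it was 3 without M1 replicate 2. Averaging a gene's probes turned Hk1 to 0.75 and Ifnar1 to 0.042. With 1 array left out Stab2 ran from -5.32 to 0.36. Of 270 genes, 14 lost their call under some setting: Cox4i1, Cyld, Gbp2b, Ifnar1, Ifnb1, Irak1, Irf4, Prf1, Slc2a3, Srm, Stab2, Stat5a, Stat5b and Tlr4. Calls were also gained. In 27 combinations of a named gene and a setting, a gene not called in the main fit was called. Causes were not tested.

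The labels do not say that a replicate number marks a shared culture, and the numbers were not taken as pairs because 1 of the 4 correlations between same-numbered arrays was below 0.1 (0.61, 0.11, 0.68 and 0.088). As a hint from the data, 3 of 4 M1 arrays matched best with their own number, so some pairing is possible. With the replicate block, 3897 genes were higher and 4306 lower. Each slide had its own scan time, so a block on scan time would equal the slide block and was not run. A probe near background gives only a bound, and 4 arrays a group limit the precision.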

Other observations

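Of 14853 protein-coding genes tested and put in genome order with the RefSeq table, 1817 (12.2%) were called higher and 1782 (12.0%) lower by 1 log2 unit or more. Among them, 70 runs of at least 3 neighbours were all higher by that much, taking in 244 genes, and 43 runs were all lower, taking in 143. Runs of at least 5 genes numbered 9 and 2. The longest, of 8 genes, lay in the MHC and held H2-Oa, Brd2, H2-DMa, H2-DMb1, Psmb9, Tap1, Psmb8 and Tap2, which join class II peptide exchange to the class I transporter and immunoproteasome. Runs of 6 held the interferon-induced GTPases Gm4951, Gm4841, F830016B08Rik and Iigp1 with their neighbours Isoc1 and Smim3, and the Ly6 genes Ly6i, Ly6a, Ly6c1, Ly6a2, Ly6g and Ly6f. Runs of 5 included Gbp5, Gbp7, Gbp3, Gbp2b and Gbp2, and the matrix metalloproteinase genes Mmp13, Mmp12, Mmp10 and Mmp8 with Dcun1d5. Another held Rcl1, Jak2, Insl6, Plgrkt and Cd274, which places the IFN-gamma receptor kinase beside PD-L1. Among the falls, 6 replication-dependent histone genes formed the longest run. Probes of close copies can read each other's RNA, so runs within gene families are uncertain. These include the Ly6, Gbp and Orm families, the other interferon-induced GTPases and the histone genes. No test of the runs was made, so how many would arise without any link between neighbours was not tested.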
